A study of Mus musculus with 30 samples.

Results

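The 7 genes described here encode the BCL2 proteins that decide whether the outer mitochondrial membrane stays closed: the survival proteins Bcl2, Bcl2l1 (BCL-XL), Bcl2l2 (BCL-W) and Mcl1, and the effectors Bax, Bak1 and Bok. They were chosen by symbol, and all 7 were found among the 39017 genes of the count table and passed the filter on low counts. BAX and BAK1 form pores that release cytochrome c and start caspase activation. Survival proteins hold the effectors and the BH3-only activators in check, and BH3-only proteins such as BMF and BIM in turn occupy the survival proteins. Bok is an effector-like relative that is held back less by the survival proteins. In beta cells, BCL-XL and MCL1 are known to protect against stress-induced death.

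The cells were βTC3, an insulin-producing line derived from a mouse islet tumour, with transposon plasmids whose inserts are switched on by doxycycline (DOX). There were 5 lines, labelled ALK7 (ALK7 expression, the type I activin receptor encoded by Acvr1c), ALK7-DN (a receptor form whose letters conventionally stand for dominant negative), sh1/2 and sh2 (both ALK7 knock-down) and control. ALK7, ALK7-DN and control carried one plasmid backbone. The sh2 and sh1/2 lines carried another, and no hairpin-free line of that backbone was among the samples, so an effect of a hairpin and one of its plasmid or line cannot be told apart. Every culture had 1 µg/ml DOX for 24 hours, and each line was compared with 50 ng/ml activin B for 24 hours and without it, in 3 libraries per group and 10 groups. Cultures were wells of one line plated in triplicate, so p-values measured only the spread between wells, which may be technical.

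Library totals ran from 18904884 to 34740789 counts. The labels gave batch 2 to 6 libraries, ALK7-DN with activin B and sh2 with DOX alone, and batch 1 to the other 24, so that in these lines batch and activin B cannot be told apart. With activin B, Acvr1c was lower in sh1/2 than in control by a log2 fold change of -1.91 and in sh2 by -1.24 (adjusted p = 1.6e-12 and 1.87e-08, edgeR quasi-likelihood test), whereas under DOX alone the ALK7 line differed from control by -0.10 (adjusted p = 0.754) and ALK7-DN by -0.03 (adjusted p = 0.984). The coding sequence carried by those plasmids was not given in the sources used here, so the count of the mouse gene does not check these labels. The 12 beta cell markers were counted in every library, with Ins2 between 4093 and 11080 CPM (counts scaled to library size). Their summed level was lower with activin B, with no overlap of libraries, in 4 of 5 lines. It was 18510 to 20510 CPM with activin B and 22320 to 24080 CPM with DOX alone in ALK7, 19340 to 21690 CPM with activin B and 24000 to 25830 CPM with DOX alone in ALK7-DN, 18400 to 18830 CPM with activin B and 22590 to 24760 CPM with DOX alone in sh2, and 17460 to 20650 CPM with activin B and 23680 to 24600 CPM with DOX alone in control cells. In sh1/2 it was 15740 to 17580 CPM with activin B and 14520 to 19620 CPM with DOX alone. In the mean of the 5 lines 3 of the 12 markers rose and 6 fell with activin B, among them Ins2 (log2 fold change -0.70). Their part in the members' changes with activin B was not tested. The 13 markers of other cells that the table held summed to at most 12.4 CPM with activin B and 14.4 CPM with DOX alone. Prss2 was at 0 in 30 libraries, and Cftr reached 10.4 CPM. Control activin B replicate 2 and sh1/2 DOX replicates 1 and 3 had lower counts on GC-rich genes: across genes, each library's deviation from all libraries correlated with GC content at -0.57, -0.49 and -0.53 (Spearman), against -0.31 to 0.41 in the other 27 libraries. The GC content of the members' exons ran from 46.3% in Bcl2 and 48.7% in Mcl1 to 61.0% in Bok and 63.5% in Bax. Results that these libraries or GC content moved are therefore also given without the 3 libraries or after a correction for GC content. Without them sh1/2 DOX is 1 library, replicate 2, which is assumed to vary like the other groups, and control activin B is 2. The other lines lose no library, but the filter on low counts, the scaling and the shared estimate of the spread were redone. That fit tested 16215 genes, against 15627 with all libraries.

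Levels were compared between the members as CPM per kilobase of exon. Bax was the most abundant, at a mean of 77.0 CPM per kb over 30 libraries, followed by Mcl1 at 32.9. Bcl2l2 (17.6 CPM per kb), Bak1 (15.3) and Bcl2l1 (9.70) came next, then Bok at 2.34. Bcl2, the gene that gave the family its name, was lowest at 0.0387 CPM per kb and had only 4 to 18 counts per library. Bcl2l2 stood above Bak1 in 8 of the 10 group means and below it in ALK7 and sh1/2 cells with activin B, so this pair had no fixed order. The remaining ranks were the same in all 10 group means.

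**Figure D1:**
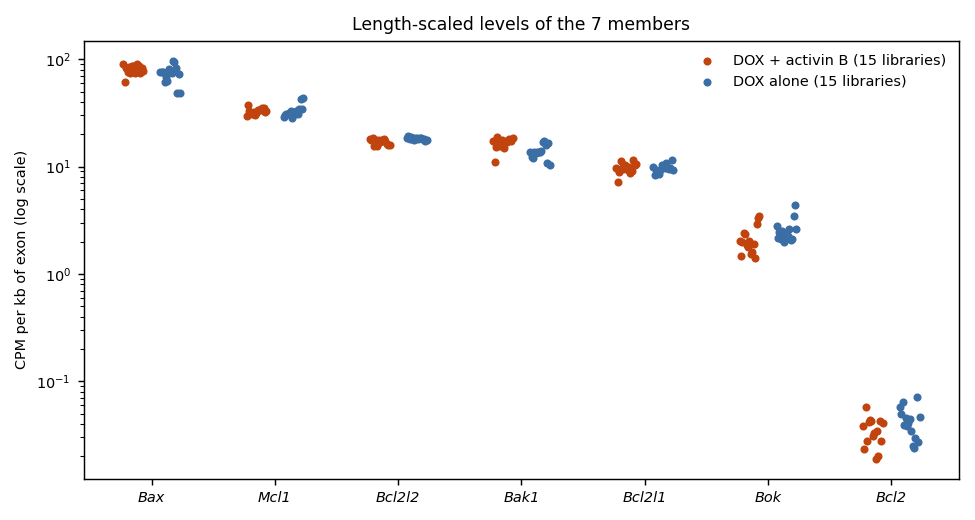
Level of each member in CPM per kb of exon (log axis), 1 point per library, with the 15 activin B libraries left of the 15 libraries with DOX alone. The effector Bax lies at the top, Bok is far lower, and Bcl2 lies lowest, at a mean of 0.0387 CPM per kb.

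The members lie on 6 mouse chromosomes in mm10 (GENCODE M21 annotation, protein-coding genes). Bcl2 is at chr1:106538178-106714274 (minus strand) and Bok at chr1:93685660-93695764 (plus). Bcl2l1 is at chr2:152780668-152831728 (minus), Mcl1 at chr3:95658788-95663176 (plus) and Bax at chr7:45461697-45466898 (minus). Bcl2l2 is at chr14:54883377-54888234 (plus) and Bak1 at chr17:27019810-27029009 (minus). The strand setting of the counting was not given in the sources used here, so reads in shared exons are uncertain. Bak1 shares 437 exon bases (18.2%) with Ggnbp1 on the opposite strand, which had a median count of 125, and Bcl2l2 shares 594 bases (13.3%) with Gm20521 on its own strand, which had a median count of 0.

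The 250 bases before the RefSeq start (GRCm38.p6) of the 4 members that passed the test in the mean of the 5 lines are shown because activin signals to the nucleus through SMAD proteins, which bind the short box CAGAC or its complement GTCTG. Matches of either strand are in capitals. Each sequence reads 5′ to 3′ along the gene: Bak1 at chr17:27028628-27028877 (minus strand, inside the GENCODE gene), Bax at chr7:45466899-45467148 (minus), Bok at chr1:93685325-93685574 (plus) and Bcl2l2 at chr14:54883175-54883424 (plus, its end inside the GENCODE gene).
Bak1: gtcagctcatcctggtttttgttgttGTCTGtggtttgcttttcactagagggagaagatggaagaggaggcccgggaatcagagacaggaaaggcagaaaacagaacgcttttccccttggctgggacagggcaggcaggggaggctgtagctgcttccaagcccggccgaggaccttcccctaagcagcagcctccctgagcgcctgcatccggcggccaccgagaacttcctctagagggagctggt
Bax: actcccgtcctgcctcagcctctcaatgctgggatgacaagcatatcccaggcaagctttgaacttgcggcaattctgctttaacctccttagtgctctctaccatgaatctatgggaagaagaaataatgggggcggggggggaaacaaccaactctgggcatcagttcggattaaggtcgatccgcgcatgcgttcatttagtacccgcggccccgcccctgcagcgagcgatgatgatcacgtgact
Bok: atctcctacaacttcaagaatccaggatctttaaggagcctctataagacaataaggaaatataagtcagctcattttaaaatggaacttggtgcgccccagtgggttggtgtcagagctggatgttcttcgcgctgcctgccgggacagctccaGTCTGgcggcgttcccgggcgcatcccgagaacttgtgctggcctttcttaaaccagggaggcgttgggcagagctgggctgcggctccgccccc
Bcl2l2: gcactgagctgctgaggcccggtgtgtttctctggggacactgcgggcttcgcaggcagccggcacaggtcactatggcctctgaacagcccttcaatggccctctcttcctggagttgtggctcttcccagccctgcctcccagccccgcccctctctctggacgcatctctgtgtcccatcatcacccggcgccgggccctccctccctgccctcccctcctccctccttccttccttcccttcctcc
The Bak1 and Bok windows held 1 match each and those of Bax and Bcl2l2 held 0. Of 32851 RefSeq windows of the same length, 42.2% held at least 1 match, and of the 9 windows of the 7 members, 3 did. The 5-letter box is short, a match is no evidence of binding, and its part in the members' changes was not tested.

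Averaged over the 5 lines, activin B moved the effectors in different directions and lowered one survival gene. Bak1 and Bax were higher with activin B, Bok and Bcl2l2 lower, and Mcl1, Bcl2l1 and Bcl2 did not pass the test. This was 4 of 7 members at an adjusted p under 0.05 (edgeR quasi-likelihood F test, Benjamini-Hochberg over 15627 genes), beside 43.6% of all genes tested, of which 21.5% were higher and 22.0% lower. With so many genes called, the count itself does not set the members apart. The changes were modest: the mean folds were 1.21 for Bak1, 1.12 for Bax, 0.828 for Bok and 0.929 for Bcl2l2. In bulk samples, fewer cells expressing a gene and less RNA per cell cannot be told apart. The median log2 fold change was -0.05 over the 4 survival genes and 0.17 over the 3 effectors, beside -0.01 over all genes tested.

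**Figure D2:**
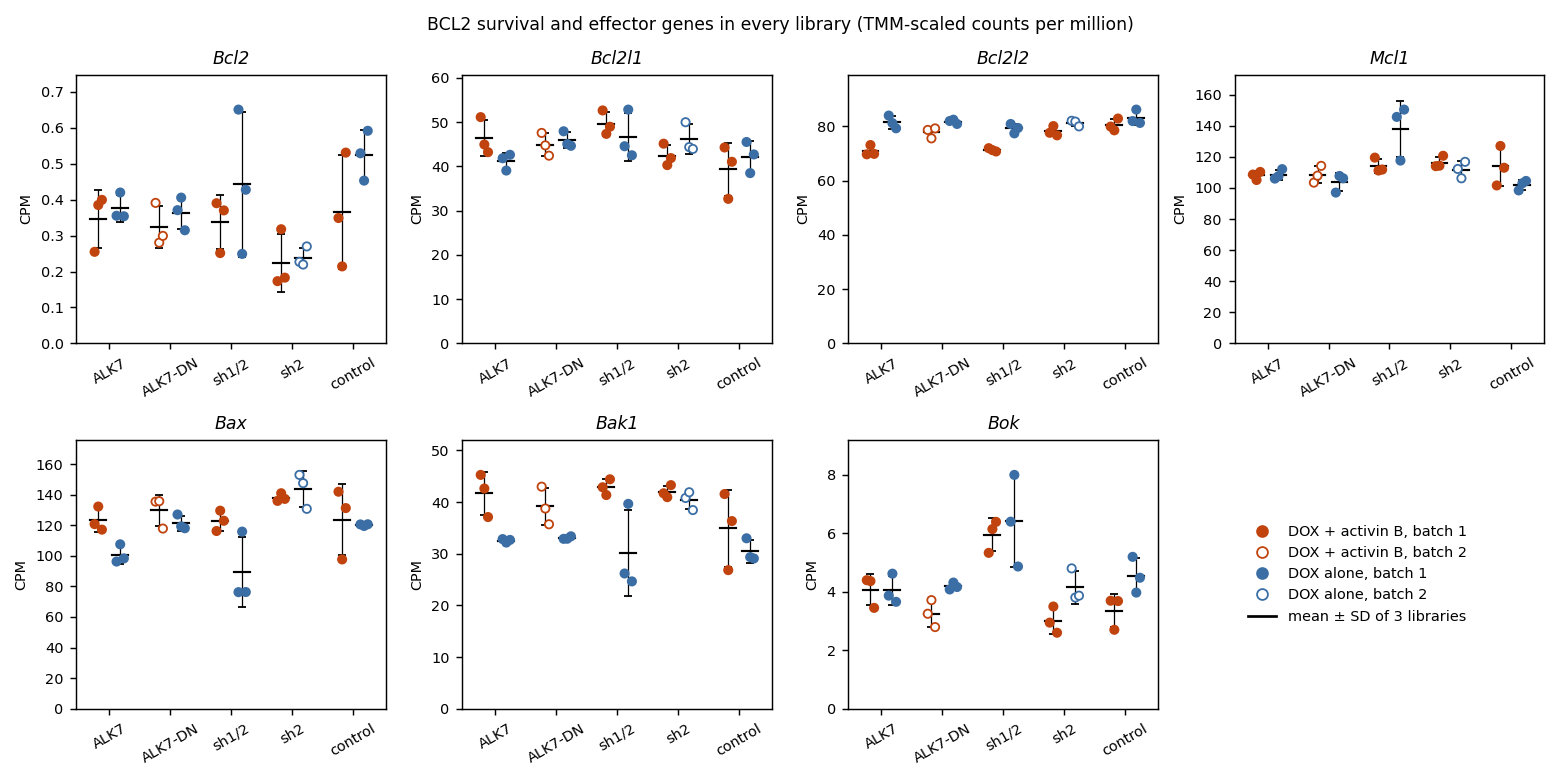
CPM of each member in every library, activin B (left of each pair) and DOX alone (right), with open points for batch 2 and bars for mean ± SD of 3 libraries. Bok is highest in the sh1/2 line, 4.86 to 8.0 CPM, and in sh1/2 DOX 2 of the 3 libraries lie near 76 CPM for Bax.

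Bcl2l2 encodes BCL-W, a survival protein prominent in neurons and the testis. It was lower with activin B in 5 of 5 lines, by -0.11 ± 0.02 on average (log2 fold change ± SE, adjusted p = 8e-06). In the ALK7 line it had 69.7, 73.1 and 69.8 CPM with activin B, against 83.9, 81.2 and 79.2 CPM with DOX alone. All 3 activin B libraries lay below all 3 libraries with DOX alone, and the log2 fold change was -0.20 ± 0.04 (adjusted p = 0.000155). In the sh1/2 line it had 71.9, 71.2 and 70.7 CPM with activin B, against 80.8, 77.4 and 79.4 CPM with DOX alone. These groups did not overlap either (-0.15 ± 0.04, adjusted p = 0.00304). The ALK7-DN libraries were also separate, at 78.6, 75.5 and 79.2 CPM with activin B and 81.9, 82.4 and 80.8 CPM with DOX alone, but the difference of -0.07 ± 0.04 did not pass the test (adjusted p = 0.227). In sh2 and control cells the libraries overlapped and the differences were -0.06 ± 0.04 and -0.05 ± 0.04. The response of ALK7 cells minus that of control cells was -0.15 ± 0.05, which did not pass the test either (adjusted p = 0.396).

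Mcl1 encodes a short-lived survival protein that is turned over by the proteasome. Averaged over the lines its log2 fold change was 0.00 ± 0.03, with a 95% confidence interval of -0.07 to 0.07 (adjusted p = 0.989). The sh1/2 line departed from this average, with 119.5, 111.2 and 111.8 CPM with activin B, against 145.7, 117.6 and 150.4 CPM with DOX alone. The groups overlapped, since the second DOX library lay below the first activin B library, and the log2 fold change was -0.27 ± 0.08 (adjusted p = 0.00829). Control cells had 101.6, 127.0 and 113.0 CPM with activin B, against 98.4, 103.0 and 104.5 CPM with DOX alone, a difference of 0.16 ± 0.08 (adjusted p = 0.161). The highest activin B library of control and the highest 2 DOX libraries of sh1/2 were the 3 low in GC-rich reads.

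Bcl2l1, a main survival gene of beta cells, had 32.7 to 52.8 CPM in all libraries. Its average response was 0.00 ± 0.04 (95% confidence interval -0.09 to 0.09, adjusted p = 0.975), and its values in single lines ran from -0.12 to 0.17. In the ALK7 line its libraries were separate, with 51.1, 44.9 and 43.2 CPM with activin B and 41.8, 39.0 and 42.6 CPM with DOX alone, but the difference of 0.17 ± 0.10 did not pass the test (adjusted p = 0.212). Bcl2 was lower with activin B in 5 of 5 lines, by -0.24 ± 0.15 on average (adjusted p = 0.266), and at 0.173 to 0.651 CPM a change of this size was not detectable at this depth.

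Bak1, a pore-forming effector that sits on the mitochondrial surface, was higher with activin B in 5 of 5 lines, by 0.27 ± 0.06 on average (adjusted p = 0.000617). In ALK7 cells it had 45.3, 42.6 and 37.1 CPM with activin B, against 32.8, 32.2 and 32.7 CPM with DOX alone. The groups did not overlap, and the difference of 0.36 ± 0.14 missed the threshold (adjusted p = 0.055). In ALK7-DN cells it had 43.0, 38.8 and 35.7 CPM with activin B, against 32.9, 32.9 and 33.4 CPM with DOX alone, again without overlap (0.24 ± 0.13, adjusted p = 0.268). The sh1/2 line had 42.9, 41.4 and 44.4 CPM with activin B, against 26.2, 39.6 and 24.6 CPM with DOX alone. All activin B libraries were higher there (0.50 ± 0.14, adjusted p = 0.00656), although the second DOX library lay close to them. In control cells the activin B libraries spread widely, at 41.5, 26.8 and 36.3 CPM, and overlapped with 33.0, 29.3 and 29.1 CPM under DOX alone (0.20 ± 0.14, adjusted p = 0.348). Without the 3 libraries low in GC-rich reads, Bak1 passed the test in control, with a log2 fold change of 0.35 (adjusted p = 0.00184), in ALK7 (0.34, adjusted p = 0.000557) and in ALK7-DN cells (0.25, adjusted p = 0.0119). In sh1/2 cells, where this leaves 1 DOX library, the value was 0.12 (adjusted p = 0.617). After GC correction Bak1 passed in ALK7 (0.20, adjusted p = 0.0147), ALK7-DN (0.32, adjusted p = 0.000384), sh1/2 (0.20, adjusted p = 0.0192) and control cells (0.31, adjusted p = 0.0004), with sh2 at 0.16 (adjusted p = 0.057).

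Bax, which moves from the cytosol to mitochondria when activated, was higher with activin B in 4 of 5 lines, by 0.17 ± 0.06 on average (adjusted p = 0.0172). The ALK7 line had 120.7, 132.2 and 117.1 CPM with activin B, against 96.2, 107.5 and 98.3 CPM with DOX alone. These groups were separate, but the difference of 0.29 ± 0.12 did not pass the test (adjusted p = 0.0885). Bax in ALK7 passed without the 3 libraries low in GC-rich reads (0.28, adjusted p = 0.0013) and with only the groups compared (0.30, adjusted p = 0.00834), and after GC correction its sign turned (-0.06, adjusted p = 0.725). The sh1/2 line had 116.2, 129.5 and 122.9 CPM with activin B, against 76.2, 115.8 and 76.3 CPM with DOX alone. All 3 activin B libraries were higher, the second DOX library by a small margin lower than the first activin B library, and the log2 fold change was 0.46 ± 0.12 (adjusted p = 0.00705). In sh2 cells Bax did not follow the other lines, with 135.9, 140.9 and 137.2 CPM with activin B and 152.9, 147.5 and 130.7 CPM with DOX alone (-0.06 ± 0.12, adjusted p = 0.805). Bax has the highest GC content of the members, and after the GC correction its average response was 0.09 (adjusted p = 0.121), while without the 3 libraries low in GC-rich reads it was 0.12 (adjusted p = 0.00282).

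Bok moved opposite to the other effectors. It was lower with activin B in 4 of 5 lines, by -0.27 ± 0.08 on average (adjusted p = 0.00439), and in 3 of these lines all activin B libraries lay below all libraries with DOX alone. Control cells had 3.69, 2.70 and 3.68 CPM with activin B, against 5.20, 3.97 and 4.48 CPM with DOX alone (-0.43 ± 0.17, adjusted p = 0.0812). The sh2 line had 2.94, 3.50 and 2.60 CPM with activin B, against 4.80, 3.80 and 3.87 CPM with DOX alone (-0.46 ± 0.17, adjusted p = 0.0611). ALK7-DN cells had 3.25, 3.71 and 2.79 CPM with activin B, against 4.08, 4.32 and 4.16 CPM with DOX alone (-0.36 ± 0.17, adjusted p = 0.17). None of these single-line differences passed the test. Without the 3 libraries low in GC-rich reads, Bok passed in sh2 (-0.45, adjusted p = 0.0196). It also passed in sh2 in a fit that paired libraries by replicate number (a replicate block). The ALK7 line showed 0.01 ± 0.17 with overlapping libraries, and -0.28 after GC correction (adjusted p = 0.0829). Over 8 other fits, GC correction among them, Bok ran from -0.441 to -0.227 in control. It ran from -0.467 to -0.286 in sh2 and from -0.37 to -0.245 in ALK7-DN. In the 3 lines whose activin B and DOX libraries were all in batch 1, the average was -0.18 (adjusted p = 0.148), which no longer passed the test.

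**Figure D3:**
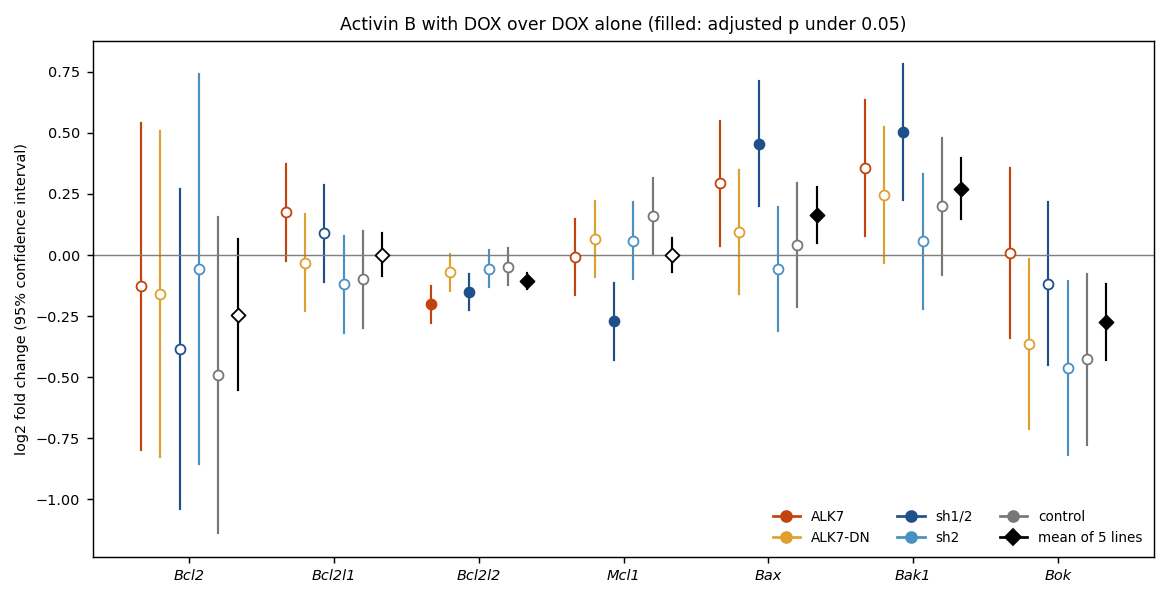
Log2 fold change of activin B with DOX over DOX alone, with its 95% confidence interval, in each line and as the mean of 5 lines (diamonds); filled symbols passed the test. Bak1 and Bax lie above 0 in the mean, Bok and Bcl2l2 below it, and Mcl1 and Bcl2l1 at 0.00.

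By line, the members called were 4 of 7 in sh1/2 (36.6% of all genes called), 1 of 7 in ALK7 (25.3%), and 0 of 7 in sh2 (19.6%), ALK7-DN (16.1%) and control (20.3%). Beside these counts of 0 from edgeR, DESeq2 also called 0 members in each of the 3 lines. At an unadjusted p under 0.05 there was 1 member in sh2 (beside 4814 of 15627 genes), 1 in ALK7-DN (4035) and 2 in control (4733). Over 8 other fits, DESeq2 among them, the members called ran from 0 to 3 in control, 0 to 2 in ALK7-DN and 0 to 1 in sh2. The 3 in control and 2 in ALK7-DN came with a replicate block and GC correction, beside 5239 and 4511 of 15627 genes. The replicate block alone called 1 in sh2, Bok, beside 4178 genes. Counted by libraries that did not overlap between treatments, there were 3 of 7 members in sh1/2 (36.3% of all genes), 4 in ALK7 (43.9%), 1 in sh2 (38.2%), 3 in ALK7-DN (32.4%) and 1 in control (32.1%). In ALK7 the replicate numbers paired the libraries, and with a replicate block 3 members were called there, Bak1 (0.35, adjusted p = 0.043) and Bax (0.29, adjusted p = 0.0324) beside Bcl2l2 (-0.20, adjusted p = 0.00111). With the block and GC correction, Bak1 kept its call (0.20, adjusted p = 0.026) and Bax was at -0.07. The sh1/2 calls moved with its DOX libraries. Without sh1/2 DOX replicate 1, or without replicate 3, only 1 of the 4 calls was left, that of Bcl2l2. These fits called 3055 of 15817 and 2974 of 15832 genes, against 5723 of 15627 with all libraries. With only the groups compared, 0 members were called in sh1/2, beside 1555 of 14841 genes. Bax was at 0.47 (adjusted p = 0.114) and Bak1 at 0.51 (adjusted p = 0.106), close to their values with all libraries. Since calls were lost over all genes, this count does not set the members apart. Without the 3 libraries low in GC-rich reads, the values against the 1 DOX library left were 0.09 for Bax, -0.04 for Mcl1 and -0.11 for Bcl2l2. After GC correction in sh1/2, Bax turned to -0.15 (adjusted p = 0.359), Bcl2l1 to -0.17 (adjusted p = 0.0195) and Bok to -0.61 (adjusted p = 0.000356), whereas Bak1 stayed higher at 0.20 (adjusted p = 0.0192) and Bcl2l2 lower at -0.30 (adjusted p = 0.000132). Mcl1 also kept its call in sh1/2 after GC correction. Over 8 other fits, GC correction among them, the members called in sh1/2 ran from 0 to 5.

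**Figure D4:**
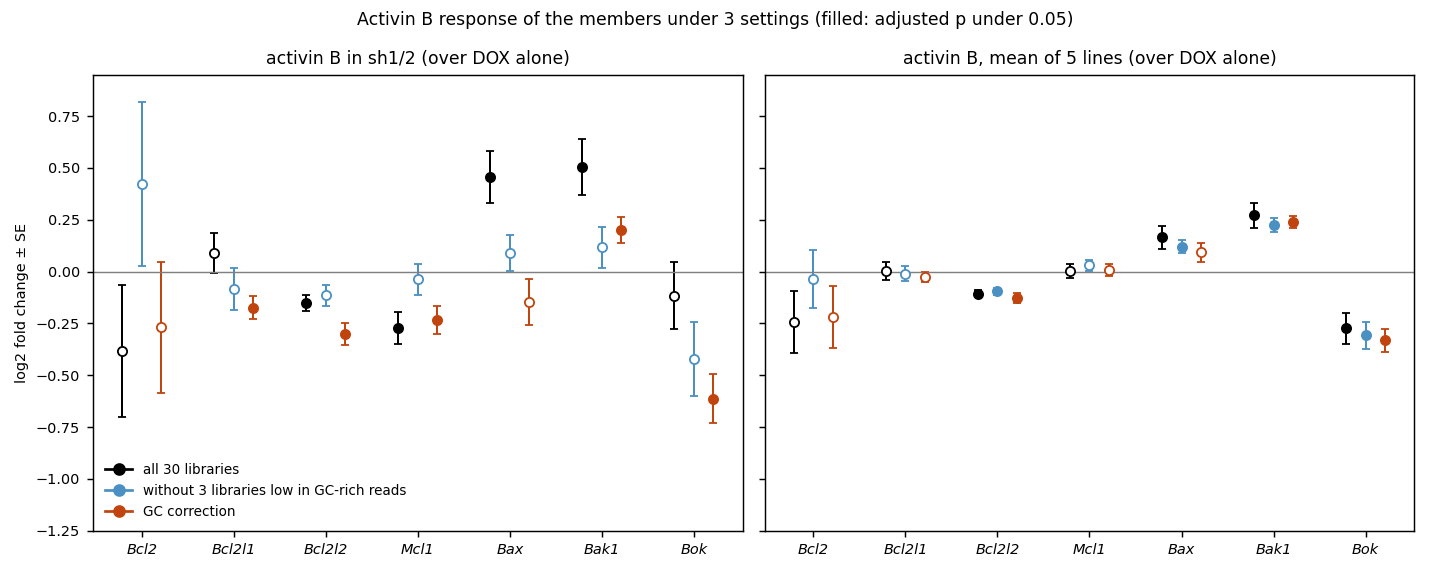
Log2 fold change ± SE of activin B over DOX alone in the sh1/2 line (left) and as the mean of 5 lines (right), with all 30 libraries, without the 3 libraries low in GC-rich reads (which leaves 1 sh1/2 library with DOX alone) and with GC correction; filled points passed the test. In sh1/2 the Bax value moves between 0.46 and -0.15, whereas Bak1 (0.23 to 0.27), Bok (-0.33 to -0.27) and Bcl2l2 (-0.13 to -0.10) keep their side of 0 and their call in the mean.

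Whether the lines responded differently was tested directly. A joint test of the response over all lines called 0 of 7 members by edgeR, beside 3.43% of all genes, with Mcl1 nearest (adjusted p = 0.0928). At an unadjusted p under 0.05 there were 3 members, beside 4577 of 15627 genes, and DESeq2 called 2. Without sh1/2 DOX replicate 2 the joint test called 4 members. For single lines minus control, Mcl1 in sh1/2 was the only member called (-0.43 ± 0.11, adjusted p = 0.0206), 1 of 7 beside 17.7% of all genes. It was lost without either of the sh1/2 DOX replicates 1 (-0.39, adjusted p = 0.0771) and 3 (-0.36, adjusted p = 0.0807), without control activin B replicate 2 (-0.34, adjusted p = 0.0843), without control DOX replicate 1 (-0.42, adjusted p = 0.056) and without sh1/2 activin B replicate 2 (-0.41, adjusted p = 0.0519). With only the groups compared it was -0.44 (adjusted p = 0.181). Without all 3 libraries low in GC-rich reads, with 1 sh1/2 DOX library left, its value was -0.11. The Mcl1 call was kept after GC correction. It changed in 5 of 12 fits that left out 1 library and in 2 of 8 other fits. No response difference of another line passed the main test for a member. For ALK7 (0.0256% of all genes), ALK7-DN (0%) and sh2 (0.0128%), edgeR and DESeq2 called 0 of 7 members. Only ALK7 had a member, Bcl2l2, at an unadjusted p under 0.05, beside 1595 of 15627 genes. With a replicate block and GC correction 2 members were called for ALK7, beside 458 of 15627 genes.

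Among lines compared within one treatment and batch, Bok stood out in sh1/2. It had 5.33, 6.14 and 6.39 CPM in sh1/2 cells with activin B, against 2.94, 3.50 and 2.60 CPM in sh2 cells with activin B. All sh1/2 libraries were higher, with a log2 fold change of 0.98 ± 0.17 (adjusted p = 0.000113). Against control cells with activin B, at 3.69, 2.70 and 3.68 CPM, the difference was 0.82 ± 0.17 (adjusted p = 0.000427), again without overlap. Under DOX alone sh1/2 had 6.40, 8.0 and 4.86 CPM, against 5.20, 3.97 and 4.48 CPM in control cells, which overlapped (0.51 ± 0.17, adjusted p = 0.018). That call was lost without control DOX replicate 2 (0.42, adjusted p = 0.0855) or 3 (0.50, adjusted p = 0.0505), or without sh1/2 DOX replicate 2 (0.32, adjusted p = 0.127), and after GC correction the value was 0.86 (adjusted p = 3.24e-06). With activin B, the GC-corrected Bok differences of sh1/2 were 0.68 from sh2 (adjusted p = 0.000136) and 0.48 from control (adjusted p = 0.00281). Over both treatments the 6 sh1/2 libraries had 4.86 to 8.0 CPM of Bok and the other 24 libraries 2.60 to 5.20 CPM. The sh1/2 line also had the highest summed markers of other cells, 11.2 to 12.4 CPM with activin B and 13.04 to 14.4 CPM with DOX alone, against 4.07 to 8.40 CPM in the other lines. In sh1/2 a single marker, Cftr, reached 10.4 CPM, while the next highest, Cd68, reached at most 3.74 CPM in any library. The part of these markers in the Bok result was not tested.

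Bcl2l2 was lower in sh1/2 than in sh2 cells with activin B (-0.13 ± 0.04, adjusted p = 0.0102), which with Bok made 2 of 7 members called beside 23.3% of all genes. This call was lost without sh2 activin B replicate 2 (-0.11, adjusted p = 0.0653) and with no low-count filter (-0.12, adjusted p = 0.0932). Against control with activin B, sh1/2 had 3 of 7 members called beside 35.2% of all genes: Bok and Bcl2l1 were higher and Bcl2l2 was lower (-0.17 ± 0.04, adjusted p = 0.000621). Bcl2l1 had 52.6, 47.3 and 49.0 CPM in sh1/2, against 44.3, 32.6 and 41.0 CPM in control, where the second library was 1 of the 3 low in GC-rich reads. The difference was 0.33 ± 0.10 (adjusted p = 0.0087), and 0.22 without that library alone (adjusted p = 0.0866). With only the groups compared, Bok alone kept its call here, with Bcl2l1 at 0.33 (adjusted p = 0.0627) and Bcl2l2 at -0.17 (adjusted p = 0.0671). ALK7 cells with activin B had 1 of 7 called beside 4.53% of all genes, Bcl2l2 at 69.7, 73.1 and 69.8 CPM against 79.9, 78.5 and 82.8 CPM in control. All ALK7 libraries were lower (-0.18 ± 0.04, adjusted p = 0.00339), and with a like value the call was lost with no low-count filter (-0.18, adjusted p = 0.0503) and with only the groups compared (-0.19, adjusted p = 0.289). In sh2 against control with activin B, 0 of 7 members were called by edgeR and by DESeq2, beside 9.23% of all genes by edgeR. At an unadjusted p under 0.05 there were 0 members, beside 3237 of 15627 genes. With GC correction 1 member was called, beside 2362 of 15627 genes.

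**Figure D5:**
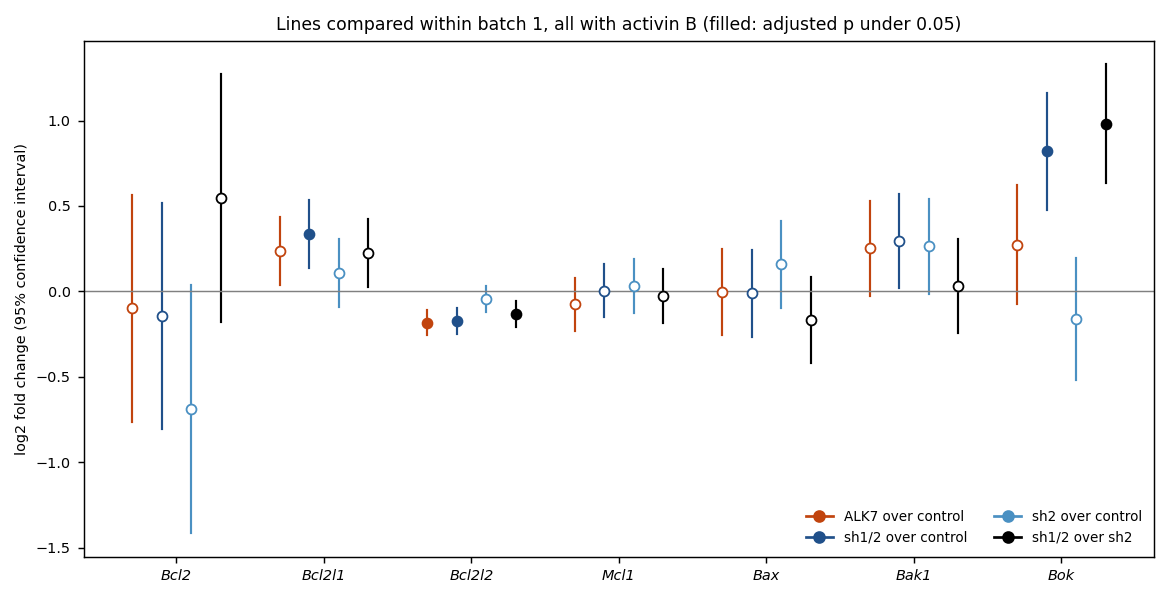
Log2 fold change with 95% confidence interval between lines that all had activin B and batch 1; filled points passed the test. Bok reaches 0.82 in sh1/2 over control and 0.98 in sh1/2 over sh2, and Bcl2l2 lies below 0 in ALK7 over control (-0.18) and in both sh1/2 comparisons.

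Under DOX alone, sh1/2 against control called 3 of 7 members beside 38.0% of all genes. Mcl1 was higher at 145.7, 117.6 and 150.4 CPM in sh1/2, against 98.4, 103.0 and 104.5 CPM in control (0.43 ± 0.08, adjusted p = 8.28e-05). Bax was lower at 76.2, 115.8 and 76.3 CPM in sh1/2, against 120.5, 119.5 and 120.6 CPM in control (-0.42 ± 0.12, adjusted p = 0.00928), and Bok was the third. Neither Mcl1 nor Bax overlapped between the lines. In both genes the sh1/2 libraries farthest from control were replicates 1 and 3, and the 1 sh1/2 library left without the libraries low in GC-rich reads, replicate 2, gave 0.20 for Mcl1 (adjusted p = 0.0618) and -0.06 for Bax (adjusted p = 0.721). After GC correction Mcl1 was at 0.41 (adjusted p = 2.23e-05) and Bax at -0.01 (adjusted p = 0.955), and with only the groups compared Bax (-0.42, adjusted p = 0.11) and Bok (0.52, adjusted p = 0.114) lost their calls. Bax was also lost without sh1/2 DOX replicate 1 alone (-0.32, adjusted p = 0.0765) or 3 alone (-0.32, adjusted p = 0.0743). ALK7 and ALK7-DN against control under DOX alone each had 0 of 7 members called by edgeR and by DESeq2, beside 1.98% and 0.966% of all genes by edgeR. At an unadjusted p under 0.05 each had 0 members, beside 2134 and 1319 of 15627 genes. For ALK7, a replicate block with GC correction called 1 member, beside 1373 of 15627 genes.

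The summed effectors divided by the summed survival genes, both in CPM per kb, gave a ratio of transcripts that says nothing of protein. It was 1.70 ± 0.12 in ALK7 cells with activin B and 1.35 ± 0.08 with DOX alone (SD, n = 3 each), and the 3 activin B libraries (1.60 to 1.82) lay above the 3 with DOX alone (1.30 to 1.44). The ratio was not corrected for GC content, and its main part, Bax, was at -0.06 in ALK7 and -0.15 in sh1/2 under that correction. Across 15453 genes the activin B response correlated with GC content at 0.26 in ALK7 and 0.59 in sh1/2 (Spearman). In sh1/2 the ratio was 1.65 ± 0.12 with activin B and 1.08 ± 0.36 with DOX alone, where 2 of the 3 DOX libraries were at 0.889 and 0.862 and the other at 1.49. In ALK7-DN it was 1.70 ± 0.17 with activin B and 1.59 ± 0.09 with DOX alone, in sh2 1.75 ± 0.04 with activin B and 1.81 ± 0.15 with DOX alone, and in control 1.59 ± 0.36 with activin B and 1.58 ± 0.04 with DOX alone, with overlapping libraries in these 3 lines. Bax alone made up 39.8% to 53.2% of the summed CPM per kb of the 7 members in group means.

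Other genes of the pathway were counted in the mean of the 5 lines, beside the same 21.5% higher and 22.0% lower. Of 8 BH3-only genes, which act upstream of the members, 4 rose and 1 fell. Bmf, whose protein is held on the cytoskeleton until stress releases it, rose by 2.72 ± 0.07 (adjusted p = 4.62e-21), further than any member moved. Hrk rose by 0.59 and Bcl2l11, which encodes BIM, by 0.12, whereas Pmaip1, which encodes the MCL1 antagonist NOXA, was lower by a log2 fold change of -1.14 at under 1.1 CPM in every library. Of 16 genes of the apoptosome, caspases and their inhibitors, many but not all of which act downstream of BAX and BAK1, 3 rose and 8 fell. Casp2 rose by 0.11, and Aifm1 (-0.13) and Cycs, which encodes cytochrome c (-0.61), fell. Of 16 genes for partners and turnover of the members, 2 rose and 4 fell: the calcium channels Itpr2 (0.36) and Itpr1 (0.18) rose, and Trim17, an MCL1 ubiquitin ligase (-0.85), and the mitochondrial channel Vdac1 (-0.10) fell. Of 8 death receptor genes tested, 1 rose and 2 fell, with Dapk1 at 0.55, Cflar at -0.26 and Casp8 at -0.22, while Fadd at -0.07 did not pass the test.

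Bax is itself a known p53 target. Of 15 other genes, Trp53 and further p53 targets, 6 rose and 2 fell, with Trp53inp1 at 0.98, Btg2 at 0.90, Plk2 at 0.52 and Perp at -1.10. Among 9 further BCL2 relatives 4 had enough counts to be tested. Of these 0 were called by edgeR, with Bcl2l12 at 0.16, Bcl2l15 at 0.13, Bcl2l13 at -0.04 and Bcl2l14 at -0.25. At an unadjusted p under 0.05 there were 0, beside 7760 of 15627 genes. The median log2 fold changes of these lists lay between -0.08 for death receptor genes and 0.16 for BH3-only genes, beside -0.01 over all genes tested.

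The genes most like each member were found by Pearson correlation of mean log2 CPM over the 10 groups among 12266 genes with at least 2 CPM, and these are descriptions over 10 points that share libraries. Bok was nearest to Sik1 (r = 0.986), a salt-inducible kinase, which like Bok was higher in sh1/2 than in sh2 cells with activin B (1.63 ± 0.15) and lower with activin B on average (-0.42 ± 0.07). Sik1 was picked on these same group means, so the shared differences are no separate support. The next for Bok was Cercam (0.963). Mcl1 was nearest to Polk (0.984) and Cebpz (0.98), Bak1 to Prr13 (0.978) and Prcc (0.969), and Bcl2l2 to Mlf1ip (0.962) and Slc31a1, a copper transporter (0.956). Bax was nearest to Phyhip and Ftl1 (both 0.954), where Ftl1, ferritin light chain, has near-identical copies and its counts are uncertain. Bcl2l1 was nearest to Ywhag (0.93) and Fam53a (0.915). Bcl2 was nearest to Gm17296 (0.964) and Baiap2l1 (0.932), with group means of Bcl2 that rest on few counts. Between members, Bax and Bak1 had r = 0.73 over the 10 group means and Bcl2 and Bak1 r = -0.77.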

How the data were processed

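Total RNA (Trizol) went into stranded mRNA libraries, per the labels. The submitters' processing notes name bcl2fastq 2.17, cutadapt 1.4.2, HISAT2 (version not given in the sources used here), featureCounts 1.4.4 and the build mm10. The authors deposited integer read counts per gene; the 30 single-sample files were identical to the columns of the series table, and all count columns were mapped. A normalized expression table was not used. Counts were fitted with edgeR 4.0.16 in R 4.3.3 (filterByExpr, leaving 15627 genes, TMM scaling, 10 group means, quasi-likelihood F test, Benjamini-Hochberg threshold 0.05). CPM are TMM-scaled. A standard error is the absolute log2 fold change divided by the square root of F. The mean of 5 lines weights the within-line differences equally, so an additive batch difference cancels. The likeness of genes and members used edgeR's log2 CPM, with a prior of 2 counts, scaled to library size, added before the log. The GC correction was an offset from a loess of each library's gene-wise deviations on exon GC content. Other alternatives were DESeq2 1.42.0, RLE size factors, no low-count filter, a fit of the compared groups only, each library left out, and a replicate block. Within a line, deviations of same-numbered libraries correlated at 0.11 to 0.21 in ALK7 and 0.13 to 0.32 in sh1/2, all over 0.1. In the other lines 1 or more pairs did not exceed 0.1 (0.08 to 0.33). In all 5 lines each activin B library correlated best with its own number (15 of 15). The main test did not use the numbers, and the replicate block did. The pairing comes from the data, not from a label. The members, lists, tests and the 3 libraries left out together were chosen with earlier results of these data known. Besides the members and Acvr1c, named genes are up to 4 per list with the smallest p in the mean of 5 lines and the 2 genes most like each member; 1 gene named by this rule is not reported here. The fitting was tested on simulated data.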

Additional observations from a re-analysis of the deposited data

Results flagged for a closer look

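The activin B response of Mcl1 in the sh1/2 line minus that in the control line was -0.43 ± 0.11 (log2 scale, ± SE; adjusted p = 0.0206 by edgeR), a difference between lines that was tested directly. Mcl1 had 119.5, 111.2 and 111.8 CPM in sh1/2 cells with activin B and 145.7, 117.6 and 150.4 CPM in sh1/2 cells with DOX alone, against 101.6, 127.0 and 113.0 CPM in control cells with activin B and 98.4, 103.0 and 104.5 CPM in control cells with DOX alone. Without the 3 libraries low in GC-rich reads, which leaves 1 sh1/2 DOX library and 2 control activin B libraries, the difference was -0.11, and after GC correction it was -0.38 (adjusted p = 0.0183).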

How the results depend on the processing

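The mean of 5 lines called 4 members in each of the 30 fits that left out 1 library; Bak1 ran from 0.24 to 0.32, Bax from 0.14 to 0.21, Bok from -0.31 to -0.24 and Bcl2l2 from -0.11 to -0.10. Those 30 fits called 6534 to 7472 genes in all. The mean of 5 lines called 3 members with GC correction (Bax lost), beside 7970 of 15627 genes. It called 3 with only the 3 lines sharing a batch (Bok lost), beside 6105 genes. It could not be fitted with only the groups compared, since it uses all of them. RLE size factors changed no count of members called.

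Leaving out single libraries, the members called ran from 1 to 4 for activin B in sh1/2 (4 with all libraries), 1 to 2 in ALK7 (1), 0 to 1 in control (0) and 0 to 1 in sh2 (0). They ran from 0 to 3 for the response of sh1/2 minus control (1), 0 to 4 for the joint test (0), 1 to 2 for sh1/2 against sh2 (2), and within 1.5 times elsewhere. The count of 4 in the joint test came without sh1/2 DOX replicate 2. Calls over all genes moved too. For activin B in sh1/2 they ran from 2974 of 15832 (without sh1/2 DOX replicate 3) to 8227 of 15827 (without replicate 2). For the response of sh1/2 minus control they ran from 289 of 15817 (without sh1/2 DOX replicate 1) to 6983 of 15827 (without replicate 2). The member counts alone therefore do not set the members apart. Mcl1 in control was called without control activin B replicate 1 (0.23, adjusted p = 0.0363), Bak1 in ALK7 without ALK7 activin B replicate 3 (0.43, adjusted p = 0.0369), and Bok in sh2 without sh2 activin B replicate 2 (-0.59, adjusted p = 0.0396). For the response of sh1/2 minus control, Bax was called without control activin B replicate 1 (0.53, adjusted p = 0.0299), and Bax (0.65, adjusted p = 0.00096) and Bak1 (0.55, adjusted p = 0.00633) without sh1/2 DOX replicate 2.

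Without the 3 libraries low in GC-rich reads, sh1/2 DOX is 1 library, assumed to vary like the other groups. Activin B then called 3 members in ALK7 (5032 of 16215 genes). It called 1 each in control (3154 genes), ALK7-DN (3319) and sh2 (4200). ALK7 against control under DOX called 1 (623 genes), and sh1/2 against sh2 with activin B called 4. Bak1 in sh1/2 against control under DOX reversed to 0.375. With GC correction, activin B called 2 in ALK7 (5048 of 15627 genes) and 1 each in control (4209) and ALK7-DN (3579). The response of sh1/2 minus control called 2 (913 genes). In sh2 against control with activin B 1 was called (2362 genes), and in the joint test 1. In sh1/2 with activin B, Bcl2l1 reversed to -0.174 and Bax to -0.147, and Bak1 in sh1/2 against control under DOX to 0.203. With only the groups compared, activin B called 0 in sh1/2 (1555 of 14841 genes) and 3 in ALK7 (4501 of 14651). The response of sh1/2 minus control called 0 (45 of 15216 genes). In sh1/2 against control 1 was called under DOX (2430 of 14574) and 1 with activin B (3820 of 14817). ALK7 against control with activin B called 0 (46 of 14748), and sh1/2 against sh2 called 4. DESeq2 called 2 in ALK7 (3937 of 15627 genes) and 2 in the joint test. With no low-count filter, ALK7 against control with activin B called 0 (473 of 26816 genes) and sh1/2 against sh2 1. The cause of these changes was not tested.

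In control, ALK7-DN and sh2 not every same-numbered pair correlated over 0.1. Still, 15 of 15 activin B libraries correlated best with their own number, so the numbers matched libraries in all 5 lines. The main test did not use the numbers. With a replicate block, activin B called 3 in ALK7 (5021 of 15627 genes) and 4 in sh1/2 (7435), where no call changed. It called 1 each in control (4314 genes) and sh2 (4178). The response of sh1/2 minus control called 2 (5956 genes), and the joint test 2. With the replicate block and GC correction, the mean of 5 lines called 4 (8862 of 15627 genes), with Bax at 0.09 (adjusted p = 0.0122). Activin B then called 3 in control (5239 genes), 2 in ALK7 (6063) and 2 in ALK7-DN (4511). The response minus control called 2 for ALK7 (458 genes) and 4 for sh1/2 (2735). ALK7 against control called 1 under DOX (1373 genes) and 2 with activin B (1750). In sh2 against control with activin B 1 was called (3204 genes), and in the joint test 4. Under this fit, Bcl2l1 (-0.176) and Bax (-0.144) reversed in sh1/2 with activin B, Bcl2l1 (-0.17) and Bax (-0.429) in the response of sh1/2 minus control, Bax (-0.355) in that of ALK7 minus control, and Bak1 (0.204) in sh1/2 against control under DOX.

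Depth limits Bcl2, with 4 to 18 counts per library, and to a lesser degree Bok, with 63 to 257.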
